A study of Mus musculus with 12 samples.

Results

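The axon guidance ligands and receptors were 66 genes of the semaphorin, plexin, neuropilin, ephrin, Eph, Slit, Robo, netrin and Unc5 families. They were chosen by gene symbol from the array's annotation, out of 17097 genes with a probe set of 1 symbol. A probe set is a group of short probes that reads 1 transcript, and where a gene had several, the 1 with the highest mean over 12 arrays was used. The 66 genes had 126 probe sets in all. By family they were 7 class 3 semaphorins, 13 semaphorins of classes 4 to 7, 2 neuropilins, 9 plexins, 4 A ephrins, 3 B ephrins, 9 A-type and 4 B-type Eph receptors, 2 Slits, 4 Robos, 4 netrins and 4 Unc5 receptors. The last was Plxna4os1, an RNA that the annotation names as the opposite-strand transcript of Plxna4 and that is neither ligand nor receptor.

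Transcripts were measured on Affymetrix arrays in dermal fibroblasts sorted from 3 female littermate mice aged 2 days. Each animal gave 4 populations, so there were 12 arrays and 3 per population. The papillary population was CD26+ without surface Dlk1 or Sca1. The Dlk1- Sca1+ population lacked CD26 and Dlk1 and carried Sca1. The Dlk1+ Sca1+ population lacked CD26 and carried both Dlk1 and Sca1, and the labels call both Sca1+ populations pre-adipogenic. The reticular population was Dlk1+ without CD26 or Sca1. All 4 carried Pdgfra and CD34, lacked CD45, CD117, CD31 and EpCam at the surface, and came from skin whose subdermis had been taken away. RNA of 4500 cells per sample was amplified over 21 cycles. The labels give no strain, and name no mutation or treatment. With 3 littermates of 1 sex and 1 age, the spread between animals is that of a single litter.

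Values are log2 RMA values, so a difference of 1 is a 2-fold difference. Their scale is relative: levels of different genes are not comparable, because each probe set binds differently. A gene is said to be called, or to be higher or lower, where limma's moderated test fitted to all 17097 genes gave a Benjamini-Hochberg adjusted p under 0.05. Errors beside a mean are SD over the 3 animals, and errors beside a difference are standard errors from that fit. Precision is limited by the number of arrays.

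Of the markers used in the sort, Sca1's gene was not analysed here. Dpp4, which encodes CD26, averaged 10.61 in papillary cells and 6.37, 6.26 and 6.30 in Dlk1- Sca1+, Dlk1+ Sca1+ and reticular cells. Dlk1 averaged 9.97 and 11.39 in papillary and Dlk1- Sca1+ cells, sorted without it but not free of its transcript, and 12.86 and 12.97 in Dlk1+ Sca1+ and reticular cells. The mean of 12 fibroblast genes lay between 11.05 and 11.28 on all arrays. The mean of 10 pericyte and smooth muscle genes was 6.27 to 6.40 in papillary, 6.65 to 6.86 in Dlk1- Sca1+, 6.83 to 7.40 in Dlk1+ Sca1+ and 7.26 to 7.85 in reticular cells. The mean of 13 skeletal muscle genes was 5.56 to 5.64 in papillary, 5.61 to 5.73 in Dlk1- Sca1+, 5.91 to 6.01 in Dlk1+ Sca1+ and 6.21 to 6.37 in reticular cells. The mean of 24 endothelial genes lay between 5.73 and 6.24, that of 15 immune genes between 5.22 and 5.68, and that of 14 neuronal genes between 5.21 and 5.47. Of the neuronal genes Stmn2 averaged 8.91 in papillary and 7.64, 6.71 and 7.36 in Dlk1- Sca1+, Dlk1+ Sca1+ and reticular cells. In that order Syt1 averaged 5.81 and 5.09, 5.03 and 5.13. Tubb3 was lowest in papillary cells, at 5.6 and 6.05, 6.42 and 6.11, and Isl1 highest in reticular cells, at 5.71 and 5.69, 5.69 and 7.25. Between papillary and reticular cells 2 of the 14 were higher and 2 lower in papillary cells, 28.6% against 27.5% of all genes. The part of neuronal RNA in the genes high in papillary cells was not tested. One array stood apart. In the Dlk1- Sca1+ sample of animal 1 the mean of 14 keratinocyte genes was 9.17, against 6.97 and 6.97 in the same population of animals 2 and 3, and 6.21 to 7.68 elsewhere. The mean of 14 Schwann cell and melanocyte genes was 6.84 there, against 6.17 and 5.87. The calls that change without that array are listed after the families.

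Axon guidance proteins steer growing nerve fibres, and the same ligand and receptor pairs act on vessels, muscle and connective tissue cells. Class 3 semaphorins are secreted and bind neuropilins, which signal through A-type plexins. The other vertebrate semaphorins are mostly bound to membranes and bind plexins directly. Ephrins are held on the cell surface, by a lipid anchor in the A class and a membrane span in the B class, and touch Eph receptor tyrosine kinases on neighbouring cells. Slits are secreted ligands of Robo receptors, and netrins are secreted ligands of Dcc and Unc5 receptors. In skin, sensory nerves run through the dermis to reach the epidermis and hair follicles.

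The stretches just before the RefSeq start of 4 genes are printed first. Epha3 and Sema3g had the widest ranges of population means among the 66 genes, and Efna5 and Efnb2 the widest among the ephrins. Each is 250 bases read 5′ to 3′ on the gene's strand, from RefSeq's GRCm38.p6 table. Capitals mark the TATA-type motif TATAA, the CCAAT box, the GC box GGGCGG and the E-box CACGTG, searched on both strands.
Sema3g, chr14:31217623-31217872, plus strand: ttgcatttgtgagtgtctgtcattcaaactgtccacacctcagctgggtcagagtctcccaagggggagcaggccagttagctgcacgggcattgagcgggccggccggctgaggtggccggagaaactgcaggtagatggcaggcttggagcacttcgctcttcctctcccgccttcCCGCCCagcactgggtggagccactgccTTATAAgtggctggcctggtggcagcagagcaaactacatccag
Efna5, chr17:62881318-62881567, minus strand: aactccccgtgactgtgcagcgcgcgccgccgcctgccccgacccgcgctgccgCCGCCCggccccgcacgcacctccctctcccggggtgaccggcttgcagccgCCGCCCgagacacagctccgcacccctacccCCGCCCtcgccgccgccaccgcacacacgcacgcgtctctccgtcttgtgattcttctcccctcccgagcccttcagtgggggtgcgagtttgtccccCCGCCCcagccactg
Efnb2, chr8:8661243-8661492, minus strand: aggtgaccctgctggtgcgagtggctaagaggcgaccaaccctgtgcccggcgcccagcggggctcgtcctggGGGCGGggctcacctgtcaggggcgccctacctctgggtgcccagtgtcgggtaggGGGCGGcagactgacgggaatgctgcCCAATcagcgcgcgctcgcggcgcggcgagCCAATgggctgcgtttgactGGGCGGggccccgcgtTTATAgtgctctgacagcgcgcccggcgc
Epha3, chr16:63864176-63864425, minus strand: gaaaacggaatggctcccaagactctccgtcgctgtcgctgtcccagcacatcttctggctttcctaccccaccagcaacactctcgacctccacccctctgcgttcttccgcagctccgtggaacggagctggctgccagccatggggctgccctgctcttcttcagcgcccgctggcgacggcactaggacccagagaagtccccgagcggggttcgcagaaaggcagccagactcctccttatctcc
G and C made up 60.4% of the Sema3g stretch, 74.8% of Efna5's, 72.0% of Efnb2's and 62.8% of Epha3's, against a median of 52.4% over 32851 such windows in the table. CpG pairs numbered 8, 32, 27 and 16 in that order, and the median window held 6. The GC box was found 1 time in Sema3g, 4 times in Efna5 and 3 times in Efnb2, and 32.7% of all windows hold it. Efnb2's stretch held the CCAAT box 2 times, which 33.8% of windows hold, and the TATA-type motif 1 time, which 22.8% hold. In Sema3g's, the TATA-type motif matched on both strands, the 2 matches overlapping. The E-box, in 6.02% of windows, was in none of the 4, and Epha3's stretch held none of the 4 motifs. These matches describe letters, not bound sites. The table had an entry for 56 of the 66 genes.

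Papillary cells differed most from the other 3 populations, in both directions. Between papillary and reticular cells 14 guidance genes were higher and 15 lower in papillary cells, 29 of 66, or 43.9%, against 27.5% of all genes (13.9% higher and 13.6% lower). Against Dlk1+ Sca1+ cells 19 were higher and 12 lower in papillary cells, 47% against 28% of all genes (14.1% and 13.9%), and against Dlk1- Sca1+ cells 21 were higher and 10 lower, 47% against 26.4% (13.1% and 13.3%). Dlk1- Sca1+ cells had 6 higher and 19 lower than reticular cells, 37.9% against 18.2% of all genes (9.36% and 8.8%). They had 8 higher and 6 lower than Dlk1+ Sca1+ cells, 21.2% against 7.36% of all genes (3.23% and 4.13%). Dlk1+ Sca1+ cells had 12 lower than reticular cells, 18.2% against 8.43% of all genes (4.06% higher and 4.37% lower), and by limma none was higher at the adjusted threshold and 3 at an unadjusted p under 0.05. With the animal as a block in the same limma fit that last count of 12 became 19, of which 3 were higher in Dlk1+ Sca1+ cells. The median size of a difference between papillary and reticular cells was 0.26 over the guidance genes, against 0.14 over all genes. The 6 comparisons share populations, so their counts are not independent of each other. In sorted bulk samples, fewer cells that express a gene and less RNA per cell cannot be told apart.

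**Figure D1:**
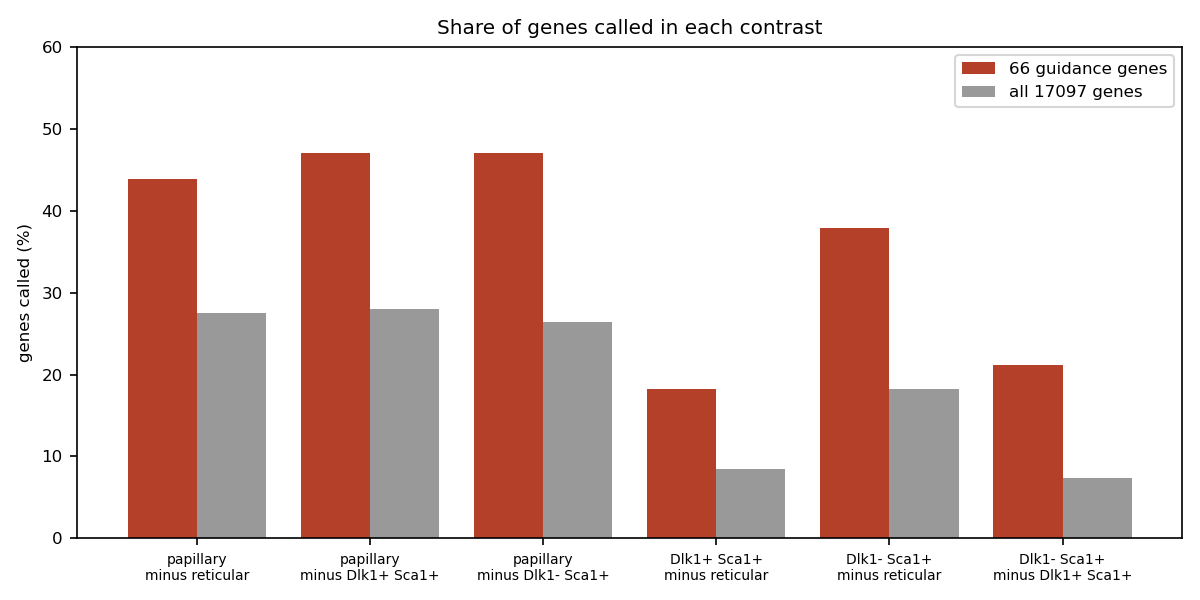
Share of genes called (adjusted p under 0.05, y axis in percent) in each of the 6 comparisons (x axis), for the 66 guidance genes (red) and all 17097 genes (grey). The red bar is the taller in each comparison, at 43.9% against 27.5% between papillary and reticular cells.

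Over the 4 populations together, 39 guidance genes passed limma's F-test, 59.1% against 35.7% of all genes. Of the 66, 41 were called in at least 1 comparison, 62.1% against 42.1% of all genes, and 20 were called with a difference of at least 1, 30.3% against 9.55% of all genes. These 20 and Ntn1 are described array by array. Genes called above each of the other 3 populations numbered 12 of 66 in papillary cells, where 7.97% of all genes were. They were Sema3a, Sema3f, Sema4d, Plxna1, Plxna4, Plxnc1, Efna4, Efna5, Efnb2, Robo1, Robo2 and Plxna4os1. In Dlk1- Sca1+ cells there were 2, Sema3g and Sema6a, where 1.54% of all genes were, and with the animal as a block 5, Plxnd1, Efnb1 and Slit2 being added. Reticular cells had 5, Sema5a, Nrp1, Epha4, Unc5b and Unc5c, where 1.85% of all genes were. By limma, Dlk1+ Sca1+ cells had 0 at the adjusted threshold, against 0.579% of all genes, and 1 at an unadjusted p under 0.05.

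Genes called below each of the other 3 populations were counted in the same way. In papillary cells there were 7 of 66, Sema3g, Sema4a, Sema6a, Epha1, Epha3, Epha4 and Slit2, where 7.29% of all genes were. In Dlk1- Sca1+ cells there were 3, the class 3 semaphorins Sema3b, Sema3c and Sema3f, against 1.09% of all genes. In Dlk1+ Sca1+ cells there were 4, Nrp2, Efnb3, Robo1 and Ntn4, against 0.462% of all genes. Reticular cells had 0 by limma at the adjusted threshold, against 1.06% of all genes, and 1 at an unadjusted p under 0.05. Under all 21 alternative fits that gave all 4 populations, 10 of the 12 genes highest in papillary cells stayed so, Sema4d and Plxna1 being the exceptions. So did Sema3g in Dlk1- Sca1+ and Unc5b in reticular cells, and, as the lowest, Robo1 in Dlk1+ Sca1+ cells and 5 of the 7 in papillary cells, Epha1 and Slit2 being the exceptions. None of the 3 lowest in Dlk1- Sca1+ cells stayed so under all of them.

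**Figure D2:**
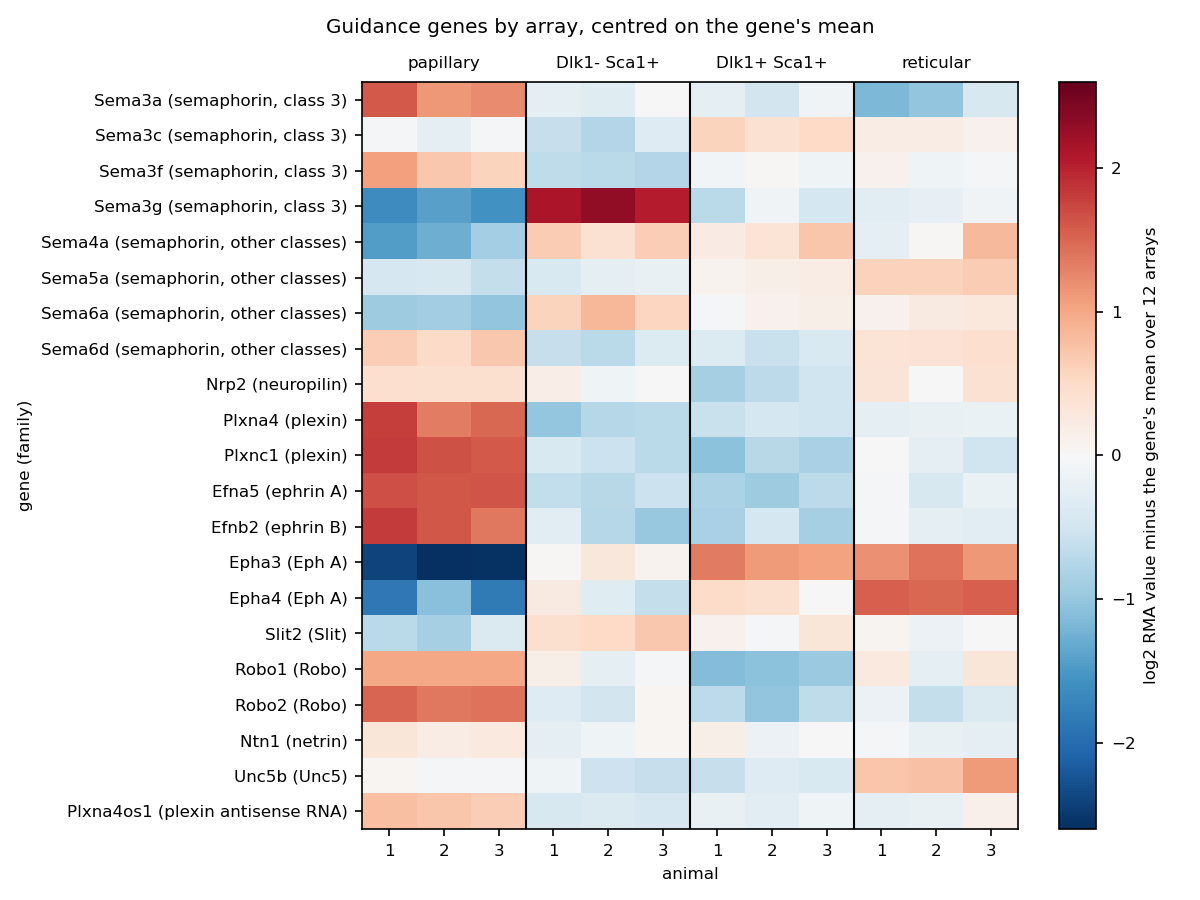
Log2 RMA value of 21 guidance genes on each of the 12 arrays (x axis, animal within population), minus the gene's mean over the 12 arrays (colour scale, red above and blue below the mean). The papillary columns are red for Plxna4, Plxnc1, Efna5, Efnb2, Robo1 and Robo2 and blue for Sema3g, Sema4a, Epha3 and Epha4.

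Of the 7 class 3 semaphorins, the secreted ligands, 6 passed the F-test, 85.7% against 35.7% of all genes. With a difference of at least 1, 4 were called, 57.1% against 9.55%. Sema3a, which repels sensory axons, was 8.40, 7.93 and 8.03 in papillary cells of animals 1, 2 and 3. It was 6.58, 6.50 and 6.82 in Dlk1- Sca1+ cells and 6.55, 6.34 and 6.71 in Dlk1+ Sca1+ cells. Reticular cells had 5.65, 5.79 and 6.40. All papillary values lay above all others. The difference was 2.17 ± 0.18 against reticular cells, or 4.51-fold (limma, adjusted p = 1.39e-06), 1.59 ± 0.18 against Dlk1+ Sca1+ cells (adjusted p = 1.93e-05) and 1.49 ± 0.18 against Dlk1- Sca1+ cells (adjusted p = 3.78e-05). Dlk1- Sca1+ exceeded reticular cells by 0.69 (limma, adjusted p = 0.0192), a call lost in 5 of 22 alternatives (adjusted p 0.00176 to 0.123), those without animal 1 or 2, the reticular array of animal 1 or 2, or the Dlk1- Sca1+ array of animal 3. Dlk1+ Sca1+ and reticular cells differed by 0.59 (limma, adjusted p = 0.0731), and with the animal as a block by an adjusted p of 0.0304. The other probe sets of Sema3a gave 1.17 and 1.02 between papillary and reticular cells, both called.

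Sema3g, a class 3 semaphorin best known from vascular endothelium, had the opposite order of papillary cells. Its values were 6.01, 6.24 and 6.07 in papillary cells and 9.77, 9.95 and 9.68 in Dlk1- Sca1+ cells. In Dlk1+ Sca1+ cells they were 6.94, 7.55 and 7.19, and in reticular cells 7.35, 7.43 and 7.56. The Dlk1- Sca1+ arrays stood above all others by over 2 on the log2 scale, and the papillary arrays below all others. Papillary cells were lower than Dlk1- Sca1+ cells by 12.9-fold (log2 difference -3.69 ± 0.13, limma, adjusted p = 5.62e-10). Dlk1- Sca1+ cells exceeded reticular cells by 2.35 ± 0.13 (adjusted p = 1.3e-07) and Dlk1+ Sca1+ cells by 2.57 ± 0.13 (adjusted p = 3.23e-07). Dlk1+ Sca1+ and reticular cells were -0.22 apart and not called (adjusted p = 0.463). Without the Dlk1- Sca1+ array of animal 1, the difference between papillary and Dlk1- Sca1+ cells was -3.71 (limma, adjusted p = 5.02e-09). The mean of the 24 endothelial genes was 5.73 to 5.80 in papillary, 5.80 to 6.06 in Dlk1- Sca1+, 5.82 to 6.24 in Dlk1+ Sca1+ and 6.04 to 6.14 in reticular cells. Of that list Pecam1, which encodes CD31, averaged 7.02, 7.68, 8.15 and 7.71 in the same order, and Sox18 averaged 6.53, 9.0, 7.48 and 9.19. Other genes of the list went the other way, Erg averaging 6.83, 5.97, 6.02 and 6.74 and Eng 8.12, 7.7, 7.94 and 8.08. Between papillary and Dlk1- Sca1+ cells 3 of the 24 were higher and 2 lower in papillary cells, 20.8% against 26.4% of all genes. The part of endothelial RNA in the Sema3g values was not tested. Sema3g has 1 probe set.

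Sema3c, and Sema3f by the probe set used, divided the Sca1+ populations. Sema3f, a ligand that binds Nrp2 by preference, was 9.41, 9.04 and 8.93 in papillary cells and 7.69, 7.65 and 7.59 in Dlk1- Sca1+ cells. It was 8.28, 8.37 and 8.23 in Dlk1+ Sca1+ cells and 8.47, 8.23 and 8.29 in reticular cells. Dlk1+ Sca1+ and reticular cells overlapped, with Dlk1- Sca1+ cells below and papillary cells above both. Papillary cells exceeded Dlk1- Sca1+ cells by 1.48 ± 0.11, or 2.80-fold (limma, adjusted p = 4.01e-07), Dlk1+ Sca1+ cells by 0.83 ± 0.11 (adjusted p = 7.86e-05) and reticular cells by 0.80 ± 0.11 (adjusted p = 0.000128). The other Sema3f probe set gave only 0.29 between papillary and Dlk1- Sca1+ cells. It gave 0.22 between papillary and reticular cells (limma, adjusted p = 0.112) and 0.08 for Dlk1- Sca1+ minus Dlk1+ Sca1+ cells (adjusted p = 0.766), neither called. The Sema3f difference of -0.65 between Dlk1- Sca1+ and Dlk1+ Sca1+ cells (limma, adjusted p = 0.0029) was lost in 3 of 22 alternatives (adjusted p 0.00051 to 0.0792): without animal 2, without animal 3, and with the mean of its probe sets.

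Sema3c, a ligand known from the developing heart's outflow tract, was 10.42, 10.22 and 10.43 in papillary cells and 9.86, 9.70 and 10.12 in Dlk1- Sca1+ cells. It was 11.04, 10.86 and 10.97 in Dlk1+ Sca1+ cells and 10.65, 10.66 and 10.57 in reticular cells. The 4 populations did not overlap, with Dlk1+ Sca1+ cells at the top. Dlk1- Sca1+ cells were below Dlk1+ Sca1+ cells by 2.09-fold (log2 difference -1.06 ± 0.10, limma, adjusted p = 4.56e-05), and below reticular cells by a log2 difference of -0.73 ± 0.10 (adjusted p = 0.000275). The call that put papillary above Dlk1- Sca1+ cells, by 0.46 (limma, adjusted p = 0.00451), was lost in 1 of 22 alternatives, without animal 1 (adjusted p 0.000266 to 0.0752 over all). Between Dlk1+ Sca1+ and reticular cells the 0.33 was not called (limma, adjusted p = 0.076), but was with the animal as a block (adjusted p = 0.0341). The other Sema3c probe set called this difference without the block, at 0.41 (limma, adjusted p = 0.0149). By that probe set Dlk1+ Sca1+ cells were also called above papillary and Dlk1- Sca1+ cells.

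By the probe sets used, the other class 3 semaphorins varied less. Sema3b averaged 8.25 ± 0.05 in papillary, 7.52 ± 0.12 in Dlk1- Sca1+, 8.06 ± 0.09 in Dlk1+ Sca1+ and 7.78 ± 0.07 in reticular cells (SD, n = 3 each). Its difference of -0.26 between Dlk1- Sca1+ and reticular cells (limma, adjusted p = 0.0401) was not called without the Dlk1- Sca1+ array of animal 1 (adjusted p = 0.0826). Another Sema3b probe set put papillary cells 1.59 above Dlk1- Sca1+ and 1.12 above reticular cells (limma, adjusted p = 1.7e-07 and 4.95e-06). A further one gave 0.11 and -0.29 for these differences, neither called, so the size for Sema3b depends on the probe set. Sema3d, at 5.39 ± 0.07 in papillary and 4.81 ± 0.16 in Dlk1- Sca1+ cells (SD, n = 3 each), was higher in papillary than in both Sca1+ populations. Sema3e was called in no comparison.

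**Figure D3:**
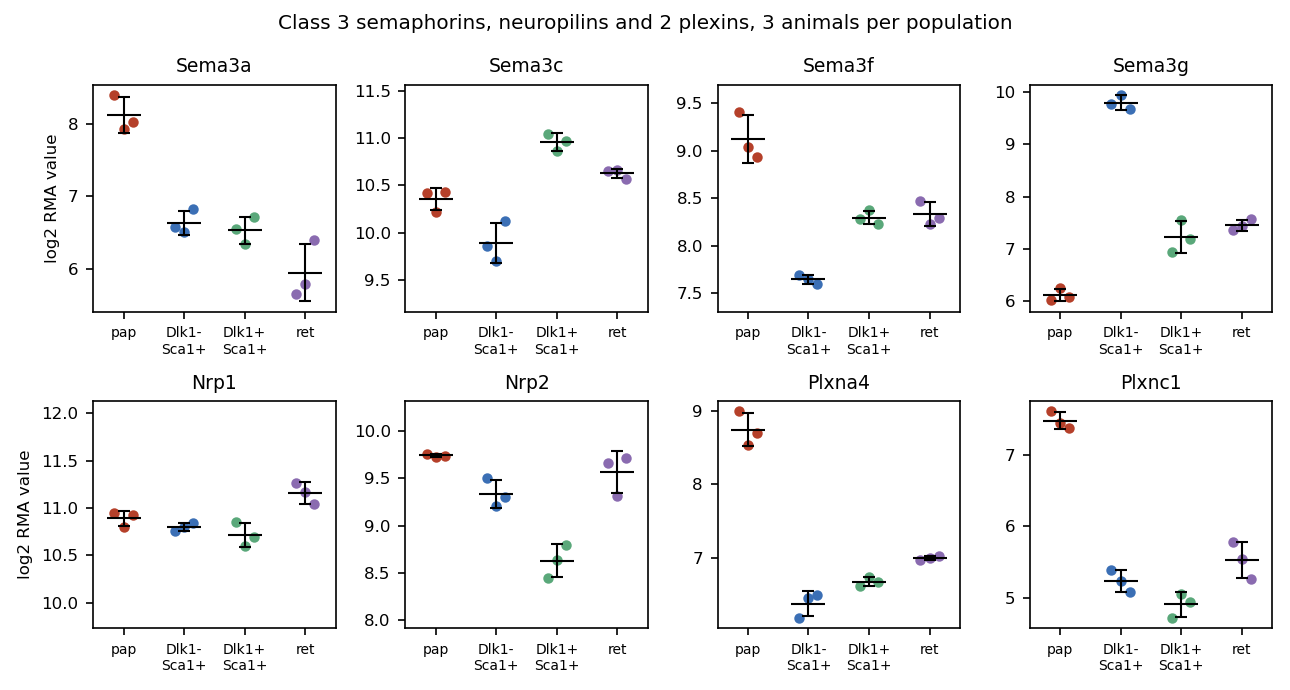
Log2 RMA value (y axis) of 4 class 3 semaphorins, both neuropilins, Plxna4 and Plxnc1 in papillary (pap), Dlk1- Sca1+, Dlk1+ Sca1+ and reticular (ret) cells (x axis). Points are animals, the long bar is the mean and the whiskers are 1 SD. Papillary cells are the highest for Sema3a, Sema3f, Plxna4 and Plxnc1, and Dlk1- Sca1+ cells for Sema3g.

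Among semaphorins of classes 4 to 7, 7 of 13 passed the F-test, 53.8% against 35.7% of all genes. With a difference of at least 1, 4 were called, 30.8% against 9.55%. Sema4a, a membrane semaphorin known for its roles in immune cells and the retina, was 6.17, 6.34 and 6.73 in papillary cells. It was 8.27, 8.01 and 8.26 in Dlk1- Sca1+ cells and 7.82, 7.96 and 8.33 in Dlk1+ Sca1+ cells. Reticular cells ranged widest, at 7.36, 7.65 and 8.46. The papillary arrays lay below all others, which overlapped. Papillary cells were lower than Dlk1- Sca1+ cells by 3.40-fold (log2 difference -1.77 ± 0.24, limma, adjusted p = 8.29e-05), than Dlk1+ Sca1+ cells by 3.08-fold (-1.62 ± 0.24, adjusted p = 0.000161) and than reticular cells by 2.66-fold (-1.41 ± 0.24, adjusted p = 0.000544).

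Sema6a, a transmembrane ligand of Plxna2 and Plxna4, shared the order of Sema3g at its ends. Its values were 8.40, 8.41 and 8.30 in papillary cells and 9.89, 10.18 and 9.87 in Dlk1- Sca1+ cells. In Dlk1+ Sca1+ cells they were 9.29, 9.43 and 9.47, and in reticular cells 9.43, 9.55 and 9.60. Papillary cells were lower than Dlk1- Sca1+ cells by 3.05-fold (log2 difference -1.61 ± 0.09, limma, adjusted p = 3.53e-08). Dlk1- Sca1+ cells exceeded Dlk1+ Sca1+ cells by 0.58 ± 0.09 (adjusted p = 0.00175) and reticular cells by 0.45 ± 0.09 (adjusted p = 0.00423). The last of these calls was lost without animal 2 (limma, adjusted p = 0.0755, and 0.000143 to 0.0755 over 22 alternatives). All 3 probe sets of Sema6a gave the same calls.

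Sema6d, a transmembrane semaphorin that binds Plxna1, was 9.22, 9.08 and 9.29 in papillary cells and 7.98, 7.87 and 8.22 in Dlk1- Sca1+ cells. It was 8.23, 8.00 and 8.18 in Dlk1+ Sca1+ cells and 8.93, 8.96 and 9.01 in reticular cells. By the probe set used, both Sca1+ populations were thus low and both Sca1-negative populations high. Papillary cells exceeded Dlk1- Sca1+ cells by 1.17 ± 0.10, or 2.26-fold (limma, adjusted p = 1.1e-06), and Dlk1+ Sca1+ cells by 1.06 ± 0.10 (adjusted p = 2.74e-06). Against reticular cells, Dlk1- Sca1+ cells differed by -0.94 ± 0.10 (limma, adjusted p = 2.3e-05), and Dlk1+ Sca1+ cells by -0.83 ± 0.10 (adjusted p = 0.000165). The 0.23 between papillary and reticular cells was not called (limma, adjusted p = 0.112), but was with the animal as a block (adjusted p = 0.0316). Other Sema6d probe sets put papillary above reticular cells by 0.75 and 0.28, both called (limma, adjusted p = 0.000206 and 0.0228). A further one gave 0.12, not called.

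Sema5a, a transmembrane semaphorin with thrombospondin repeats, had population means in the order papillary, Dlk1- Sca1+, Dlk1+ Sca1+ and reticular, from low to high. It was 10.36, 10.38 and 10.17 in papillary cells and 10.39, 10.55 and 10.59 in Dlk1- Sca1+ cells. It was 10.88, 10.95 and 10.99 in Dlk1+ Sca1+ cells and 11.39, 11.40 and 11.46 in reticular cells. Papillary cells were below reticular cells by 2.16-fold (log2 difference -1.11 ± 0.08, limma, adjusted p = 3.51e-07). The step between papillary and Dlk1- Sca1+ cells did not pass (log2 difference -0.21, limma, adjusted p = 0.0815), and passed without the Dlk1- Sca1+ array of animal 1 (adjusted p = 0.0431). Dlk1- Sca1+ cells were below Dlk1+ Sca1+ cells by -0.43 ± 0.08 (limma, adjusted p = 0.00511), a call lost without any 1 of the 3 animals (adjusted p 0.000464 to 0.0835 over 22 alternatives). Dlk1+ Sca1+ cells were below reticular cells by -0.48 ± 0.08 (limma, adjusted p = 0.00232), lost without animal 2 (adjusted p 0.000167 to 0.0593 over 22). Its relative Sema5b had means in the same order, at 7.38 ± 0.19, 7.69 ± 0.12, 8.00 ± 0.14 and 8.12 ± 0.08 in papillary, Dlk1- Sca1+, Dlk1+ Sca1+ and reticular cells (SD, n = 3 each). The other Sema5b probe set gave wider papillary differences, all called. They were -0.9 from Dlk1- Sca1+, -1.1 from Dlk1+ Sca1+ and -1.64 from reticular cells (limma, adjusted p = 7.4e-06, 1.12e-06 and 3.95e-08). Sema4d, which binds Plxnb1, was higher in papillary cells, at 6.32 ± 0.27, than in the other 3 populations, at 5.85 ± 0.18, 5.85 ± 0.13 and 5.80 ± 0.12 (SD, n = 3 each). The other Sema4d probe set put papillary cells 0.19, 0.21 and 0.1 above Dlk1- Sca1+, Dlk1+ Sca1+ and reticular cells, none of which was called.

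Both neuropilins, the co-receptors of class 3 semaphorins, passed the F-test, as did 35.7% of all genes. Nrp1 was highest in reticular cells, at 11.16 ± 0.12, against 10.89 ± 0.08 in papillary, 10.80 ± 0.04 in Dlk1- Sca1+ cells and 10.71 ± 0.13 in the Dlk1+ Sca1+ population (SD, n = 3 each), a narrow range. Nrp2 was 9.76, 9.73 and 9.74 in papillary cells and 9.50, 9.21 and 9.30 in Dlk1- Sca1+ cells. It was 8.45, 8.64 and 8.80 in Dlk1+ Sca1+ cells and 9.66, 9.31 and 9.72 in reticular cells. The Dlk1+ Sca1+ arrays stood clear below all others, and the papillary arrays were the highest by a narrow margin. Papillary exceeded Dlk1+ Sca1+ cells by 1.11 ± 0.12, or 2.16-fold (limma, adjusted p = 9.97e-06), and Dlk1- Sca1+ exceeded Dlk1+ Sca1+ cells by 0.71 ± 0.12 (adjusted p = 0.00252), the call between the Sca1+ populations being lost without animal 1 (adjusted p 0.000433 to 0.0714 over 22 alternatives). Dlk1+ Sca1+ cells were below reticular cells by a log2 difference of -0.93 ± 0.12 (limma, adjusted p = 0.000287). The 0.41 by which papillary exceeded Dlk1- Sca1+ cells (limma, adjusted p = 0.0224) was lost in 7 of 22 alternatives (adjusted p 0.00875 to 0.128), among them those without animal 2 or 3, any 1 papillary array, or the Dlk1- Sca1+ array of animal 2 or 3.

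Among 9 plexins, the signalling receptors of semaphorins, 3 were highest in papillary cells, where 7.97% of all genes were. Plxna4, a receptor for Sema3a with neuropilin and for Sema6a without it, was 8.99, 8.54 and 8.70 in papillary cells. It was 6.19, 6.46 and 6.50 in Dlk1- Sca1+ cells, 6.62, 6.74 and 6.68 in Dlk1+ Sca1+ cells and 6.97, 7.0 and 7.03 in reticular cells. No 2 populations overlapped. Papillary cells exceeded Dlk1- Sca1+ cells by 2.36 ± 0.11, or 5.13-fold (limma, adjusted p = 5.09e-09), Dlk1+ Sca1+ cells by 2.06 ± 0.11 (adjusted p = 1.61e-08) and reticular cells by 1.74 ± 0.11 (adjusted p = 1.17e-07). Dlk1- Sca1+ cells were below reticular cells by a log2 difference of -0.62 ± 0.11 (limma, adjusted p = 0.00171). The transcript named as its opposite strand, Plxna4os1, was 6.33, 6.27 and 6.19 in papillary cells and 5.13, 5.17 and 5.10 in Dlk1- Sca1+ cells. It was 5.35, 5.26 and 5.44 in Dlk1+ Sca1+ cells and 5.29, 5.35 and 5.68 in reticular cells. It was thus also highest in papillary cells, by 1.13 ± 0.10 over Dlk1- Sca1+ cells (limma, adjusted p = 1.47e-06), 0.91 ± 0.10 over Dlk1+ Sca1+ cells (adjusted p = 1e-05) and 0.82 ± 0.10 over reticular cells (adjusted p = 3.02e-05). Its difference of -0.31 between Dlk1- Sca1+ and reticular cells (limma, adjusted p = 0.0472) was lost in 18 of 22 alternatives (adjusted p 0.0238 to 0.38), among them those without any 1 animal.

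Plxnc1, the receptor of Sema7a, was 7.61, 7.44 and 7.38 in papillary cells and 5.39, 5.24 and 5.09 in Dlk1- Sca1+ cells. It was 4.72, 5.06 and 4.95 in Dlk1+ Sca1+ cells and 5.78, 5.54 and 5.27 in reticular cells. Papillary arrays lay far above the rest, by 2.57 ± 0.13 over Dlk1+ Sca1+ cells, or 5.92-fold (limma, adjusted p = 1.05e-08), 2.24 ± 0.13 over Dlk1- Sca1+ cells (adjusted p = 4.14e-08) and 1.95 ± 0.13 over reticular cells (adjusted p = 1.93e-07). A second, dim Plxnc1 probe set gave 0.18 between papillary and reticular cells and no call. The call of -0.62 between Dlk1+ Sca1+ and reticular cells (limma, adjusted p = 0.0106) was lost without animal 1 and without animal 2 (adjusted p 0.00451 to 0.101 over 22 alternatives). Its ligand Sema7a was called in no comparison without the animal as a block. Plxna1 was higher in papillary cells, at 9.19 ± 0.08, than in the others, at 8.87 ± 0.12, 8.79 ± 0.05 and 8.93 ± 0.08 in Dlk1- Sca1+, Dlk1+ Sca1+ and reticular cells (SD, n = 3 each). The other Plxna1 probe set put papillary cells only 0.04, 0.08 and 0.06 above them in that order, none of which was called. Plxnd1, a receptor of Sema3e known from vessels, averaged 6.57 ± 0.08 in papillary and 7.19 ± 0.07 in Dlk1- Sca1+ cells (SD, n = 3 each), lower in papillary cells by a log2 difference of -0.63 (limma, adjusted p = 0.000103).

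Of the 7 ephrins, Efna4, Efna5 and Efnb2 were highest in papillary cells, where 7.97% of all genes were, and Efna1 and Efna2 were called in no comparison. Of the 13 Eph receptors, Epha1, Epha3 and Epha4 were lowest in papillary cells, as were 7.29% of all genes, and none of the 4 B-type receptors was. Efna5, an A ephrin that repels retinal axons in the midbrain map, was 11.43, 11.37 and 11.39 in papillary cells and 9.12, 9.04 and 9.20 in Dlk1- Sca1+ cells. It was 8.92, 8.83 and 9.08 in Dlk1+ Sca1+ cells and 9.73, 9.33 and 9.58 in reticular cells. The papillary arrays agreed within 0.06 and lay above all others. They exceeded Dlk1+ Sca1+ cells by 2.45 ± 0.10, or 5.48-fold (limma, adjusted p = 1.32e-09), Dlk1- Sca1+ cells by 2.28 ± 0.10 (adjusted p = 2.94e-09) and reticular cells by 1.85 ± 0.10 (adjusted p = 2.79e-08). In Dlk1- Sca1+ cells it was below reticular cells by -0.43 (limma, adjusted p = 0.00982), lost without animal 1 or 3 (adjusted p 0.00223 to 0.117 over 22 alternatives). Dlk1+ Sca1+ cells were below them by -0.60 (limma, adjusted p = 0.00219), lost without animal 1 (adjusted p 0.000386 to 0.0542 over 22).

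Efnb2, a B ephrin known as a marker of arteries, was 11.25, 11.05 and 10.81 in papillary cells and 9.13, 8.68 and 8.44 in Dlk1- Sca1+ cells. It was 8.59, 8.97 and 8.56 in Dlk1+ Sca1+ cells and 9.37, 9.17 and 9.13 in reticular cells. The last 3 populations lay close together and the papillary arrays far above them. Papillary cells exceeded Dlk1+ Sca1+ cells by 2.33 ± 0.17, or 5.03-fold (limma, adjusted p = 2.68e-07), Dlk1- Sca1+ cells by 2.29 ± 0.17 (adjusted p = 3.44e-07) and reticular cells by 1.81 ± 0.17 (adjusted p = 3.7e-06). All 4 probe sets of Efnb2 gave these 3 calls. Efnb2 differed by -0.47 between Dlk1- Sca1+ and reticular cells and by -0.52 between Dlk1+ Sca1+ and reticular cells, which limma did not call (adjusted p = 0.0772 and 0.0911), and which were called with the animal as a block (adjusted p = 0.0244 and 0.0276). Among the other ephrins, Efna4 averaged 7.41 ± 0.17 in papillary, 6.72 ± 0.07 in Dlk1- Sca1+, 6.57 ± 0.17 in Dlk1+ Sca1+ and 6.73 ± 0.21 in reticular cells (SD, n = 3 each). Efnb3 was lowest in Dlk1+ Sca1+ cells, at 7.74 ± 0.09, against 8.68 ± 0.14 in papillary, 8.33 ± 0.19 in Dlk1- Sca1+ and 8.48 ± 0.26 in reticular cells (SD, n = 3 each). Efnb1 averaged 8.54 ± 0.09 in Dlk1- Sca1+ cells and 7.90 ± 0.06 in the Dlk1+ Sca1+ population (SD, n = 3 each), a called difference.

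Epha3, a receptor that binds Efna5 with high affinity, had the widest range of the 66 genes, 3.79. Its values were 7.0, 6.72 and 6.83 in papillary cells and 9.44, 9.69 and 9.50 in Dlk1- Sca1+ cells. In Dlk1+ Sca1+ cells they were 10.76, 10.52 and 10.46, and in reticular cells 10.59, 10.81 and 10.53. Papillary cells were lowest, Dlk1- Sca1+ cells between, and the Dlk1+ Sca1+ and reticular cells highest and overlapping. Papillary cells were lower than reticular cells by 13.9-fold (log2 difference -3.79 ± 0.11, limma, adjusted p = 1.67e-10), than Dlk1+ Sca1+ cells by 13.3-fold (-3.73 ± 0.11, adjusted p = 7.06e-11) and than Dlk1- Sca1+ cells by 6.47-fold (-2.69 ± 0.11, adjusted p = 1.63e-09). In Dlk1- Sca1+ cells Epha3 was below reticular cells by -1.10 ± 0.11 (limma, adjusted p = 1.72e-05) and below Dlk1+ Sca1+ cells by -1.04 ± 0.11 (adjusted p = 8.93e-05). The other 3 probe sets of Epha3 gave differences of -5.96, -3.81 and -5.13 between papillary and reticular cells, so the fold depends on the probe set.

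Epha4, a receptor that binds both ephrin classes, was 5.94, 6.73 and 5.96 in papillary cells and 8.05, 7.50 and 7.18 in Dlk1- Sca1+ cells. It was 8.28, 8.22 and 7.81 in Dlk1+ Sca1+ cells and 9.37, 9.30 and 9.36 in reticular cells. The papillary arrays lay below and the reticular arrays above all others, with both Sca1+ populations overlapping between them. Papillary cells were lower than reticular cells by 8.77-fold (log2 difference -3.13 ± 0.23, limma, adjusted p = 3.9e-07), than Dlk1+ Sca1+ cells by -1.89 ± 0.23 (adjusted p = 3.07e-05) and than Dlk1- Sca1+ cells by -1.37 ± 0.23 (adjusted p = 0.000547). Dlk1- Sca1+ cells were below reticular cells by -1.77 ± 0.23 (limma, adjusted p = 0.000137), and Dlk1+ Sca1+ cells by -1.24 ± 0.23 (adjusted p = 0.00438), the second call being lost without animal 3 (adjusted p 0.000396 to 0.0725 over 22 alternatives). Without the Dlk1- Sca1+ array of animal 1, which read 8.05, the difference of papillary from Dlk1- Sca1+ cells was -1.13 (limma, adjusted p = 0.00176). The pericyte and smooth muscle list and the skeletal muscle list were on average also highest in reticular and lowest in papillary cells. Between these 2 populations, 4 of 10 and 7 of 13 genes were lower in papillary cells, against 13.6% of all genes, and 0 were higher. Of the first list, Des and Ndufa4l2 nevertheless averaged highest in papillary cells, at 6.4 and 7.92, against 6.09 and 7.64 in reticular cells. The part of either list in the Epha4 and Epha3 values was not tested. Epha1 averaged 7.35 ± 0.13 in papillary, 7.82 ± 0.03 in Dlk1- Sca1+, 8.21 ± 0.14 in Dlk1+ Sca1+ and 8.30 ± 0.21 in reticular cells (SD, n = 3 each). Of the 4 B-type Eph receptors, only Ephb4, the partner of Efnb2 in vessels, was called, at 8.45 ± 0.15 in Dlk1- Sca1+ against 8.90 ± 0.15 in reticular cells (SD, n = 3 each).

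**Figure D4:**
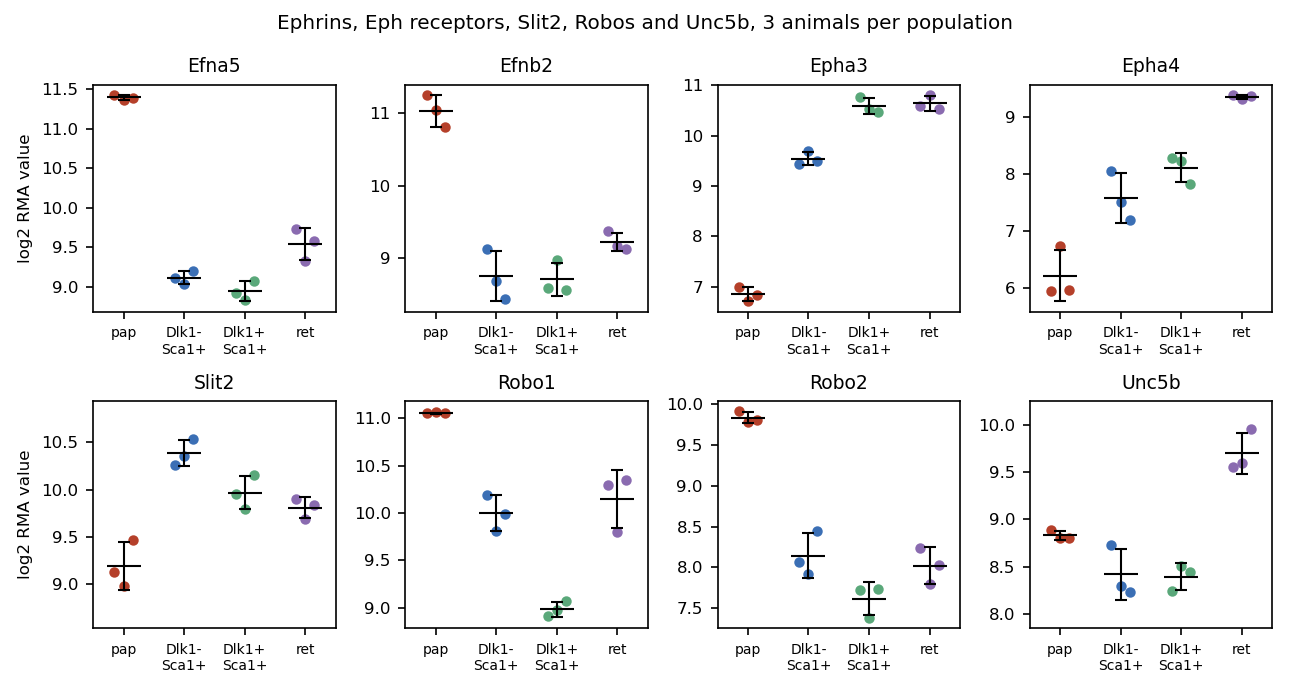
Log2 RMA value (y axis) of 2 ephrins, 2 Eph receptors, Slit2, 2 Robos and Unc5b in papillary (pap), Dlk1- Sca1+, Dlk1+ Sca1+ and reticular (ret) cells (x axis). Points are animals, the long bar is the mean and the whiskers are 1 SD. Papillary cells are the highest for Efna5, Efnb2, Robo1 and Robo2 and the lowest for Epha3, Epha4 and Slit2.

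Of the 2 Slits, Slit2 was lowest in papillary cells, and of the 4 Robos, Robo1 and Robo2 were highest there. Of all genes 7.29% were lowest and 7.97% highest in papillary cells. Slit2, a secreted ligand, was 9.13, 8.98 and 9.47 in papillary cells and 10.26, 10.36 and 10.53 in Dlk1- Sca1+ cells. It was 9.95, 9.80 and 10.15 in Dlk1+ Sca1+ cells and 9.90, 9.69 and 9.84 in reticular cells. Papillary arrays lay below and Dlk1- Sca1+ arrays above all others. Papillary cells were lower than Dlk1- Sca1+ cells by 2.28-fold (log2 difference -1.19 ± 0.13, limma, adjusted p = 1.2e-05), than Dlk1+ Sca1+ cells by -0.77 ± 0.13 (adjusted p = 0.00047) and than reticular cells by -0.62 ± 0.13 (adjusted p = 0.00262), the last lost without animal 1 (adjusted p 0.000256 to 0.0564 over 22 alternatives). The 0.57 by which Dlk1- Sca1+ exceeded reticular cells (limma, adjusted p = 0.00723) was lost in 2 of 22 alternatives, without animal 2 and with the mean of its probe sets (adjusted p 0.000779 to 0.0612 over all). The 0.42 between Dlk1- Sca1+ and Dlk1+ Sca1+ cells was not called (limma, adjusted p = 0.0757), but was with the animal as a block (adjusted p = 0.011). Slit1 was called in no comparison.

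Robo1, the most widely expressed Slit receptor, was 11.05, 11.06 and 11.05 in papillary cells and 10.19, 9.81 and 9.99 in Dlk1- Sca1+ cells. It was 8.91, 8.97 and 9.07 in Dlk1+ Sca1+ cells and 10.29, 9.80 and 10.35 in reticular cells. Papillary cells lay at the top, Dlk1+ Sca1+ cells at the bottom, and the remaining populations overlapped between them. Papillary cells exceeded Dlk1+ Sca1+ cells by 2.07 ± 0.13, or 4.20-fold (limma, adjusted p = 7.74e-08), Dlk1- Sca1+ cells by 1.06 ± 0.13 (adjusted p = 4.53e-05) and reticular cells by 0.91 ± 0.13 (adjusted p = 0.000177). Dlk1- Sca1+ exceeded Dlk1+ Sca1+ cells by 1.01 ± 0.13 (limma, adjusted p = 0.000386), and Dlk1+ Sca1+ were below reticular cells by a log2 difference of -1.16 ± 0.13 (adjusted p = 0.000119). Robo2, its close relative on the same chromosome 16, was 9.91, 9.78 and 9.81 in papillary cells and 8.06, 7.92 and 8.45 in Dlk1- Sca1+ cells. It was 7.72, 7.38 and 7.74 in Dlk1+ Sca1+ cells and 8.24, 7.79 and 8.03 in reticular cells. Papillary cells again lay clear of the rest, by 2.22 ± 0.15 over Dlk1+ Sca1+ cells, or 4.66-fold (limma, adjusted p = 1.06e-07), 1.81 ± 0.15 over reticular cells (adjusted p = 9.99e-07) and 1.69 ± 0.15 over Dlk1- Sca1+ cells (adjusted p = 1.54e-06). The 0.53 between Dlk1- Sca1+ and Dlk1+ Sca1+ cells (limma, adjusted p = 0.0479) was lost in 14 of 22 alternatives (adjusted p 0.00956 to 0.31), among them those without any 1 animal, papillary array or Dlk1+ Sca1+ array. Robo2 differed by -0.41 between Dlk1+ Sca1+ and reticular cells, not called by limma (adjusted p = 0.13) but called with the animal as a block (adjusted p = 0.0321). Robo3, and Robo4, which is known from endothelium, were called in no comparison.

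Of the 4 netrins 3 passed the F-test, 75% against 35.7% of all genes, and none was called with a difference of at least 1, as 9.55% of all genes were. Ntn1, the founding netrin, was 10.63, 10.49 and 10.56 in papillary cells and 10.05, 10.20 and 10.35 in Dlk1- Sca1+ cells. It was 10.46, 10.15 and 10.32 in Dlk1+ Sca1+ cells and 10.27, 10.12 and 10.07 in reticular cells. The papillary arrays lay at the top and the other 3 populations overlapped. Papillary cells exceeded reticular cells by 0.41 ± 0.10, or 1.33-fold (limma, adjusted p = 0.00782), and Dlk1- Sca1+ cells by 0.36 ± 0.10 (adjusted p = 0.0166), and the 0.25 over Dlk1+ Sca1+ cells was not called (adjusted p = 0.087). Without the Dlk1- Sca1+ array of animal 1 the second of these was 0.29 and not called (limma, adjusted p = 0.0766). Ntn4, a netrin of basement membranes, was lowest in Dlk1+ Sca1+ cells, at 5.72 ± 0.10, against 6.34 ± 0.13 in papillary, 6.16 ± 0.10 in Dlk1- Sca1+ and 6.12 ± 0.14 in reticular cells (SD, n = 3 each). Of the 4 Unc5 receptors 2 were highest in reticular cells, where 1.85% of all genes were. Unc5b, a netrin receptor known from vessels, was 8.89, 8.80 and 8.80 in papillary cells and 8.73, 8.30 and 8.23 in Dlk1- Sca1+ cells. It was 8.24, 8.51 and 8.44 in Dlk1+ Sca1+ cells and 9.55, 9.59 and 9.95 in reticular cells. Against reticular cells, the difference was -0.87 ± 0.14 for papillary cells (limma, adjusted p = 0.000328), -1.28 ± 0.14 for Dlk1- Sca1+ cells (adjusted p = 2.85e-05) and -1.30 ± 0.14, or 2.46-fold, for Dlk1+ Sca1+ cells (adjusted p = 6.08e-05). Papillary exceeded Dlk1+ Sca1+ cells by 0.43 (limma, adjusted p = 0.0307), lost in 8 of 22 alternatives, those without any 1 animal or papillary array among them (adjusted p 0.00595 to 0.118). Papillary exceeded Dlk1- Sca1+ cells by 0.41 (limma, adjusted p = 0.0426), lost in 12 of 22 (adjusted p 0.00437 to 0.255). The animal as a block was 1 of these 12 (adjusted p = 0.0526). Unc5c averaged 5.70 ± 0.02 in papillary, 5.64 ± 0.17 in Dlk1- Sca1+, 5.74 ± 0.21 in Dlk1+ Sca1+ and 6.23 ± 0.27 in reticular cells (SD, n = 3 each). Its place as highest in reticular cells was lost without any 1 animal or papillary array and with median-centred arrays, among other alternatives. The pericyte and smooth muscle list and the skeletal muscle list were on average highest in reticular cells too, and their part in these receptor values was not tested.

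The 25 guidance genes called in no comparison had ranges of population means of 0.03 to 0.52. They were Sema3e, Sema4b, Sema4g, Sema6b, Sema6c, Sema7a, Plxna2, Plxna3, Plxnb1, Efna1, Efna2, Epha5, Epha6, Epha7, Epha8, Epha10, Ephb1, Ephb3, Ephb6, Slit1, Robo3, Robo4, Ntn5, Unc5a and Unc5d. Of these, 9 had a mean over the 12 arrays at or under 5.38, among the dimmest genes on the array. Of the 21 genes called without a difference of at least 1, whose ranges were 0.23 to 0.94, 3 were as dim, and of the 20 with one, none was. With the animal as a block 5 of the 25 were called, Sema7a between papillary and reticular cells (limma, adjusted p = 0.037), Sema4g between papillary and Dlk1+ Sca1+ cells (adjusted p = 0.0316), Plxna3 between papillary and Dlk1- Sca1+ cells (adjusted p = 0.0366), Epha7 between Dlk1- Sca1+ and reticular cells (adjusted p = 0.0339), and Efna2, lower in papillary than reticular cells (adjusted p = 0.033) and than the Dlk1+ Sca1+ population (adjusted p = 0.0312). Among genes called elsewhere, the block also called Ephb4 in 3 further comparisons, Sema5b and Efnb1 in 2 each, and Sema3b, Plxnb3 and Plxnd1 in 1 each. An uncalled gene is not shown to be equal in the populations.

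The array that stood apart touched a few guidance genes. In the Dlk1- Sca1+ sample of animal 1, 4 of 66, or 6.06%, exceeded both other Dlk1- Sca1+ samples by over 0.5, as did 2.14% of all genes, 13 of 14 keratinocyte genes and 4 of 5 pigment genes. Efna1, a ligand of Epha2 found in epithelia, read 9.54 in that sample, against 7.57 and 7.55 in the same population of animals 2 and 3. Epha2 read 6.13 there against 5.60 and 5.49, Ephb1 5.79 against 4.91 and 5.11, and Epha4 8.05 against 7.50 and 7.18. Epcam, which the sort excluded at the surface, read 8.62 there against 6.07 and 5.97. With that array in the fit, Efna1 was called nowhere. Without it, papillary cells exceeded Dlk1- Sca1+ cells in Efna1 by 1.02 (limma, adjusted p = 0.00186) and Dlk1+ Sca1+ cells by 0.52 (adjusted p = 0.0434), and Dlk1- Sca1+ cells were below reticular cells by a log2 difference of -0.80 (adjusted p = 0.015). Of 142 calls over the 66 genes and 6 comparisons, 132 held without the array, 10 were lost, 9 were gained and none changed sign. Beside Efna1's 3, the calls gained were Epha2 between papillary and reticular cells (limma, adjusted p = 0.00733), Sema4g between papillary and Dlk1+ Sca1+ cells (adjusted p = 0.0197), Sema5a between papillary and Dlk1- Sca1+ cells, Ephb6 between Dlk1- Sca1+ and reticular cells (adjusted p = 0.0228), and Efnb2 in Dlk1- Sca1+ and in Dlk1+ Sca1+ against reticular cells (adjusted p = 0.0105 and 0.0343). The calls lost were Sema4f, Plxnb3, Ntn1 and Ntn3 between papillary and Dlk1- Sca1+ cells, Sema3b, Sema4c, Ntn3 and Plxna4os1 between Dlk1- Sca1+ and reticular cells, and Epha1 and Robo2 between the Sca1+ populations. The calls against Dlk1- Sca1+ cells then numbered 29 in place of 31 from papillary cells, 24 in place of 25 with reticular cells and 12 in place of 14 with Dlk1+ Sca1+ cells. Epha2's difference between papillary and Dlk1- Sca1+ cells was -0.52 with the array (limma, adjusted p = 0.0154) and -0.32 without it (adjusted p = 0.0439). Sema3g, Sema6a and Slit2 on that array lay within 0.5 of animals 2 and 3.

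**Figure D5:**
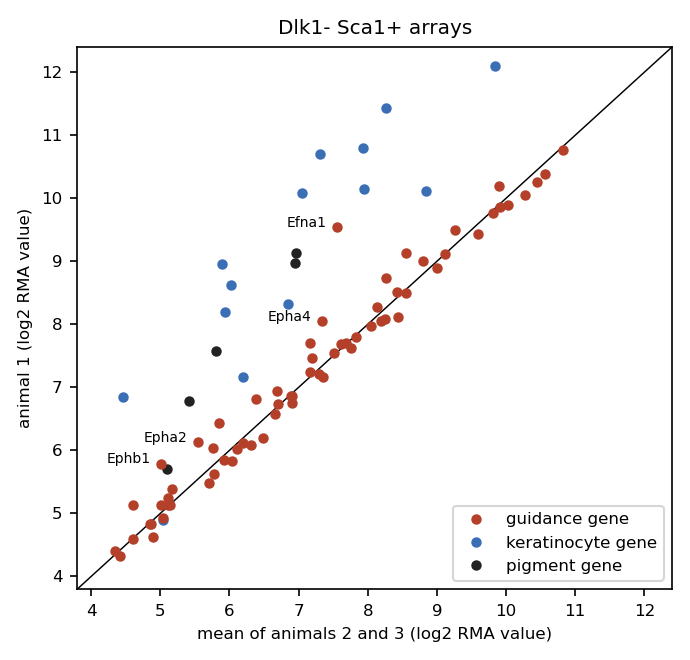
Log2 RMA value in Dlk1- Sca1+ cells of animal 1 (y axis) against the mean of animals 2 and 3 (x axis), for the 66 guidance genes (red), 14 keratinocyte genes (blue) and 5 pigment genes (black); the line marks equal values. Most guidance genes lie near the line, and the 4 named ones exceed both other animals by over 0.5.

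A wider list held 84 measured genes for other guidance ligands, receptors and their partners. Between papillary and reticular cells 20 were higher and 20 lower in papillary cells, 47.6% of the list against 27.5% of all genes. Between papillary and Dlk1+ Sca1+ cells it was 26 and 20, or 54.8% against 28%, and between papillary and Dlk1- Sca1+ cells 25 and 20, or 53.6% against 26.4%. Cxcl12, a chemokine that guides migrating cells, averaged 7.28 in papillary, 11.14 in Dlk1- Sca1+, 11.19 in Dlk1+ Sca1+ and 10.20 in reticular cells. Set against Dlk1+ Sca1+ cells, its papillary difference was -3.90 ± 0.10. Dscam, an adhesion protein that acts as a netrin receptor, averaged 8.91 in papillary cells and 5.83, 5.77 and 5.82 in Dlk1- Sca1+, Dlk1+ Sca1+ and reticular cells. Flrt2, a ligand of Unc5 receptors, was low in papillary cells, at 8.08, against 10.85, 10.08 and 9.80 in the same order. Flrt1, its relative, was high there, at 9.59, against 7.50, 6.98 and 7.81. Chn1, a Rac regulator downstream of Epha4, averaged 9.33 in papillary and 6.63, 6.61 and 7.54 in Dlk1- Sca1+, Dlk1+ Sca1+ and reticular cells. Mical2, an actin-oxidising enzyme of a family that acts downstream of plexins, averaged 9.43 and 7.98, 7.20 and 7.50 in that order, and Lrig1, a membrane regulator of receptor kinases, 10.80 and 9.24, 8.83 and 9.38. Met, the hepatocyte growth factor receptor, was lowest in papillary cells, at 5.32, and highest in Dlk1+ Sca1+ cells, at 8.04, against 6.95 in Dlk1- Sca1+ and 6.65 in reticular cells. The netrin receptors Dcc and Neo1 varied less, with ranges of population means of 0.20 and 0.37.

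Of the 66 genes, 37 had several and 29 a single probe set. Between papillary and reticular cells, 20 of those 37 were called, 15 of them by a further probe set in the same direction and none by one in the opposite direction. Between Dlk1- Sca1+ and reticular cells it was 16 of 18. Sema3b was the exception among probe sets other than the one used: between papillary and Dlk1+ Sca1+ cells one gave 0.66 (limma, adjusted p = 0.000421) and another -0.53 (adjusted p = 0.00376), while the probe set used, at 0.20, was not called. Sema4a, Robo1 and Robo2 rest on 1 probe set each, as does Sema3g.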

How the data were processed

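Transcript levels were measured on Affymetrix arrays, 12 samples in 4 populations of 3 littermates. The deposited table holds log2 values, made by the authors with RMA in affy, per the submitters' processing notes. Versions and settings are not given in the sources used here. The number of arrays limits the precision. From 45037 probe sets besides 104 controls, 28898 with 1 symbol in GEO's platform annotation were kept, 551 had several and 15588 (34.6%) none. The probe set with the highest mean stood for each of 17097 genes.

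All 12 arrays entered 1 limma 3.58.1 fit (R 4.3.3) with a mean per population, and p-values were Benjamini-Hochberg adjusted over 17097 genes per comparison. The fit had 8 residual degrees of freedom and 4.475 prior ones. On simulated data for papillary minus reticular over 17097 genes it recovered 90% of genes changed by 1 and 100% of those changed by 2, with 11 false calls. The simulation changed 200 genes, in papillary cells only, and its noise was independent between arrays, without an animal effect. These rates therefore need not hold for the real arrays. Replicate numbers name the animals, so they pair the samples: same-numbered samples deviated together (mean r 0.266, range 0.086 to 0.432, 17 of 18 pairs over 0.1). The block for animal, left-out arrays and animals, centring, quantile normalization, dim genes, probe set means, an intensity trend and pairwise fits were tried. The populations lowest for a gene were counted after seeing the data, as were their alternatives. Each gene called with a difference of at least 1 is named, with Ntn1, and given array by array. The first 8 of the wider guidance list by range are named with Dcc and Neo1, chosen after their values were seen. The members, lists and rules were chosen with earlier results of these data known. RefSeq's table matched 28689 probe sets by gene ID and changed no symbol.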

Additional observations from a re-analysis of the deposited data

How the results depend on the processing

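Leaving out 1 array or 1 animal moved the called guidance genes to between 21 and 32 from 29 for papillary minus reticular, 25 to 33 from 31 for papillary minus Dlk1+ Sca1+, and 22 to 32 from 31 for papillary minus Dlk1- Sca1+. It moved them to 7 to 14 from 12 for Dlk1+ Sca1+ minus reticular, 13 to 24 from 25 for Dlk1- Sca1+ minus reticular, and 7 to 14 from 14 for Dlk1- Sca1+ minus Dlk1+ Sca1+. The lowest counts came from fits without a whole animal, which have fewer samples: 7 without animal 2 or 3 for Dlk1+ Sca1+ minus reticular, 14 without animal 1 and 13 without animal 2 for Dlk1- Sca1+ minus reticular, and 9, 8 and 7 without animals 1, 2 and 3 for Dlk1- Sca1+ minus Dlk1+ Sca1+. Genes passing the F-test were 29 to 40 from 39. Highest in papillary cells were 10 to 13 from 12, in Dlk1- Sca1+ 1 to 4 from 2, in Dlk1+ Sca1+ 0 to 1 from 0 and in reticular 2 to 5 from 5. Lowest were 5 to 8 from 7 in papillary, 1 to 3 from 3 in Dlk1- Sca1+, 2 to 4 from 4 in Dlk1+ Sca1+ and 0 to 1 from 0 in reticular cells. The 1 lowest in reticular cells, without reticular animal 3, was Sema3a.

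With the animal as a block, Dlk1+ Sca1+ minus reticular had 19 called genes in place of 12, the genes highest in Dlk1- Sca1+ cells were 5 in place of 2, those highest in Dlk1+ Sca1+ cells 1 in place of 0 (Sema3c), and those lowest in reticular cells 1 in place of 0 (Sema3a). The block moved no other count of calls by more than 1.5 times and ended 1 of the 87 calls of named genes. Median-centred arrays gave 1 higher gene in Dlk1+ Sca1+ than in reticular cells, and left 3 of the 5 genes highest in reticular cells (Sema5a, Epha4 and Unc5b). The mean of a gene's probe sets and the intensity trend each gave 1 in place of 0 highest in Dlk1+ Sca1+ cells and 1 in place of 0 lowest in reticular cells. The cause of these shifts was not tested. Of the 87 calls, 69 held under every alternative, 18 were lost under at least 1, and none reversed in any. Of the guidance genes, 12 had means at or under 5.38, and how far detection limits these or brighter genes was not tested.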
